A study of Mus musculus with 12 samples.

Results

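The RNA of 10 heat shock chaperones was followed in the mouse aorta after 3 days of a challenge that weakens the aortic wall. The genes were Hspa1a, Hspa1b, Hspa8, Hsph1, Hspb1, Hsp90aa1, Hspd1, Hspe1, Dnajb1 and Bag3. They were taken from 20026 gene names tested on the arrays, as every non-control probe that carries one of these names. They were chosen by a reading of these arrays in which Hspa1a stood among the larger falls from DMSO to BA+DMSO, so values from that contrast are given as a description without a test. Probes were found for 9 of the 10 genes, 14 probes in all, and each of the 14 was well above background on all 12 arrays. Hspa1b had no probe under its own name, and the single Hspa1a probe lists transcripts of both genes, so the 2 RNAs cannot be told apart here.

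Heat shock chaperones bind unfolded protein and help it to fold, to reassemble or to be degraded. Under heat, oxidation or mechanical stress, heat shock factor 1 (Hsf1) is released from chaperones, forms trimers and binds repeated elements in the promoters of the inducible genes, while constitutive relatives are made in unstressed cells. In the arterial wall the small chaperone Hspb1 binds actin in smooth muscle, and Bag3 with Hspb8 and Hsp70 clears damaged filament proteins from contracting cells.

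The arrays held aortic RNA of adult male C57BL/6J mice, 1 mouse per array and 3 mice per group, all recorded as day 3. By their label DMSO mice received only dimethylsulfoxide, the vehicle. Their sample titles begin with Pre, although the record calls the group DMSO alone. The paper uses Pre for aortas before the challenge, so the dosing and day of this group rest on the record. Rapamycin mice received the mTOR inhibitor rapamycin at 2 mg/kg/day. BA+DMSO mice received β-aminopropionitrile (BAPN, 150 mg/kg/day), which blocks collagen crosslinking, and angiotensin II (AngII, 1 µg/kg/min) with vehicle, and BA+rapamycin mice received BAPN, AngII and rapamycin at the same doses. The agents were given to the whole animal and the RNA came from a piece of aortic wall, so a lower value can stand for fewer cells of a type or for less RNA per cell, which cannot be told apart.

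Each value below is a log2 signal relative to the 75th percentile of its own array. That percentile, a measure of array brightness, ranged from 221 to 280 intensity units in DMSO and 257 to 337 in rapamycin, and after the challenge 78.1 to 246 with DMSO and 74.6 to 109 with rapamycin. DMSO arrays and rapamycin replicate 1 lay on slide 1 and all other arrays on slide 2, so slide and challenge cannot be told apart in BA+DMSO against DMSO. The titles of 10 arrays hold a date of unstated meaning, which 2 DMSO and 2 rapamycin arrays share and which no rapamycin array shares with a BA+rapamycin array. All 7 smooth muscle markers were well above background on every array. The summed linear level of the macrophage markers was 21.6 to 36.6 in DMSO and 34.4 to 41.0 in rapamycin, and after the challenge 63.3 to 147 with DMSO and 88.3 to 93.2 with rapamycin, and that of 4 neutrophil markers was 206 to 257, 202 to 242, 154 to 600 and 502 to 655 in the same order. Among other lists, the sums in rapamycin and BA+rapamycin did not overlap for erythroid (80.5 to 187 and 309 to 350), fibroblast (783 to 834 and 1247 to 1567), smooth muscle (2576 to 3035 and 3471 to 4510) and lymphocyte markers (0.817 to 1.54 and 1.98 to 2.83), each higher in BA+rapamycin. The part of brightness and of these cells in the results below was not tested.

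The sequence of the Hspa1a probe is shown because it decides which RNA was measured. It covers mm9 chr17:35107117-35107176 on the minus strand, and is given whole with no letters in capitals.
Hspa1a probe: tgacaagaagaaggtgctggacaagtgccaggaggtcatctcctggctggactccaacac
The 3 Hspa8 probes are shown because they disagree below. They begin at bases 730, 1812 and 2044 of the transcript, at mm9 chr9:40611142-40611201, chr9:40612755-40613050 (spanning a splice junction) and chr9:40613223-40613282 on the plus strand. Of the last, only its first 30 bases are given.
Hspa8 probe at base 730: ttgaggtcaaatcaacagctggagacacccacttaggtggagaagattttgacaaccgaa
Hspa8 probe at base 1812: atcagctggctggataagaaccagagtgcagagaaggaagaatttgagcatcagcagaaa
Hspa8 probe at base 2044, start: ttgttccacagggacccaaaacaagtaaca

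Promoter windows from RefSeq, 250 bases before to 50 after a start site on GRCm38.p6, were found for 8 of the 10 genes and not for Hspa8 and Hsp90aa1. They were searched for the heat shock element, 3 alternating units GAANNTTCNNGAA or its reverse TTCNNGAANNTTC, which 0.603% of all 32851 windows hold, and for its 2-unit core, GAANNTTC or TTCNNGAA, which lies inside the longer motif and is held by 15.1%. Hspd1 and Hspe1, which are transcribed away from each other, share 1 such run of 4 units. It lies in the Hspd1 window at chr1:55087883-55088182, while the Hspd1 window at chr1:55088194-55088493 holds no match. The run is printed in capitals with the bases around it (chr1:55088029-55088106, plus strand).
Hspe1: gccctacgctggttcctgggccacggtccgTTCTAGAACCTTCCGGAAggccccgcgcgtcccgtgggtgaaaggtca
Hsph1 holds a 3-unit match beginning 37 bases after its start site (chr5:149636287-149636308, minus strand), in capitals here.
Hsph1: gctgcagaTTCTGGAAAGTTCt
Hspa1a and Hspa1b each hold a single 2-unit core, beginning at base -104 from the start, at chr17:34972223-34972290 and chr17:34959305-34959372 on the minus strand. Their upstream 250 bases are 98.8% identical, and the stretch around the core has the same letters in both.
Hspa1a and Hspa1b: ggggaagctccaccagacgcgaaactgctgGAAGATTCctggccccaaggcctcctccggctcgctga
Hspb1 holds 2 cores, Bag3 holds 1 and neither Dnajb1 window holds any. A match describes letters only, and a window without one says nothing of Hsf1.

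**Figure D1:**
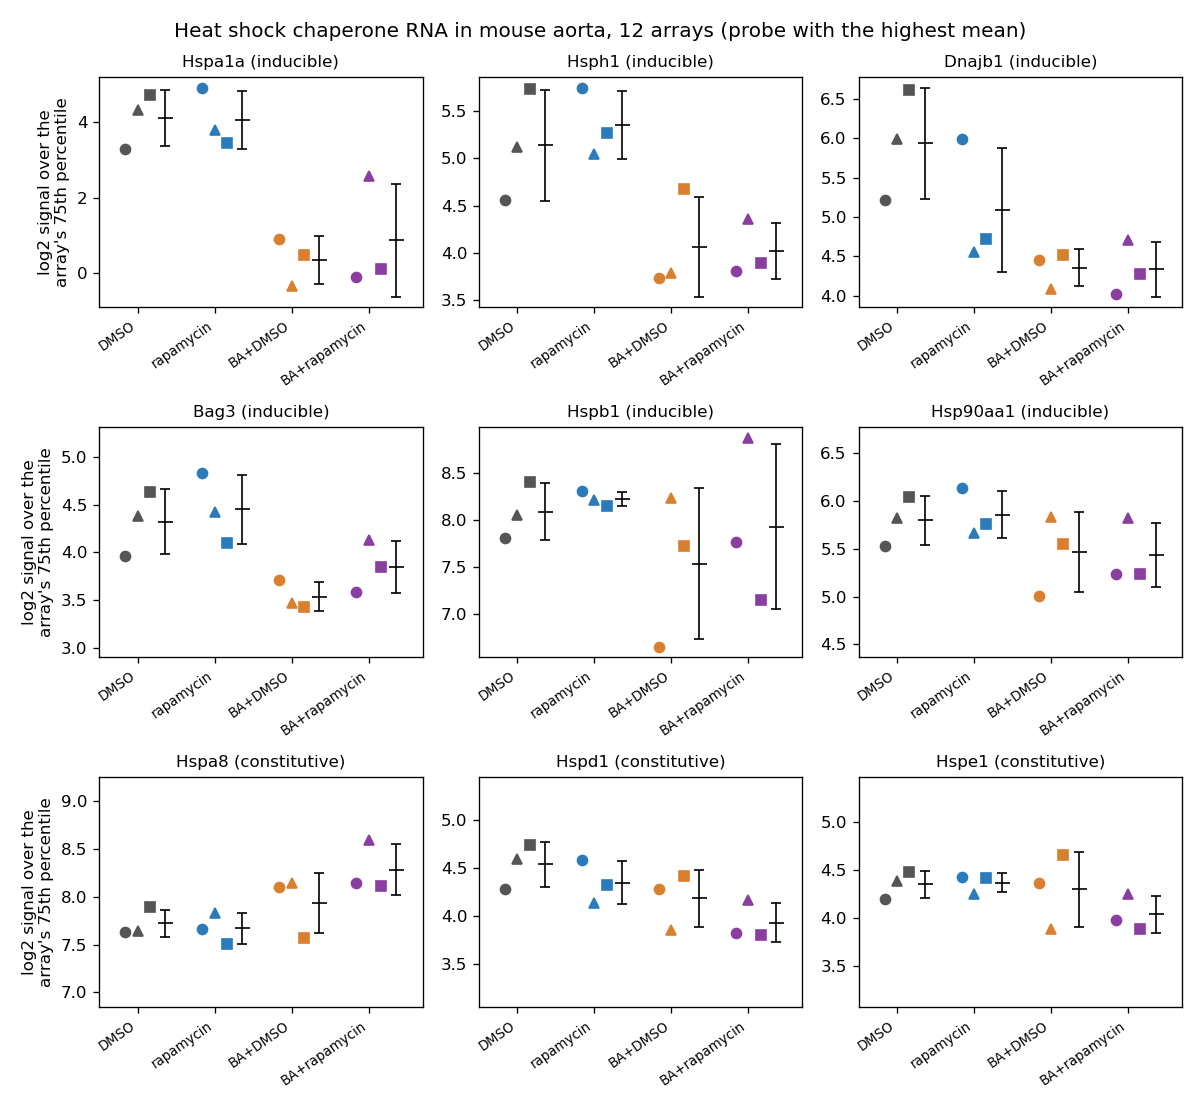
Log2 signal of 9 chaperones on each array relative to that array's 75th percentile (vertical axis) in the 4 groups (horizontal axis). Circles, triangles and squares are replicates 1, 2 and 3, bars are the mean ± SD (n = 3), and the vertical range differs between panels; Hspa1a lies at 3.30 or above on every unchallenged array and at 2.59 or below on every challenged one.

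Hspa1a encodes the stress-inducible cytosolic Hsp70, and its signal was the one that differed most between challenged and unchallenged aortas among the chaperones. Its log2 values were 3.30, 4.33 and 4.73 in DMSO and 4.93, 3.80 and 3.46 in rapamycin. They were 0.91, -0.35 and 0.47 in BA+DMSO and -0.11, 2.59 and 0.11 in BA+rapamycin. No challenged array reached the lowest unchallenged one, and BA+rapamycin replicate 2 stood between the rest of its group and the unchallenged arrays. BA+DMSO lay 3.78 below DMSO on the log2 scale, 13.7-fold in linear signal. The difference was -2.48 with slide as a block and -2.18 with the title date as a block, where a single BA+DMSO array enters.

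The comparison of BA+rapamycin with rapamycin shares no array with the one by which the genes were chosen, although the fit takes its variance from all 12 arrays. Here Hspa1a fell by 3.20 on the log2 scale (SE 0.69, 95% interval -4.72 to -1.68, limma adjusted p 0.00558), a 9.19-fold lower signal. The difference was -4.06 without BA+rapamycin replicate 2. Within slide 2, which holds 2 rapamycin and 3 BA+rapamycin arrays, it was -2.77 (adjusted p 0.0434). Fitted on the 6 arrays of these groups alone, the adjusted p was 0.0119. With the title date as a block, an alternative chosen after seeing the data, it was -2.29. That estimate rests on a single BA+rapamycin array, which shares its date with a DMSO array. It reaches the rapamycin arrays through DMSO arrays, by which the genes were chosen, so no call under this block is read here or below. With array brightness as a covariate the Hspa1a difference was -3.91 and no longer called (adjusted p 0.0988).

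Hsph1 encodes Hsp110, the nucleotide exchange factor that recharges Hsp70. By its brighter probe the log2 values were 4.56, 5.12 and 5.73 in DMSO and 5.75, 5.05 and 5.27 in rapamycin, and after the challenge 3.74, 3.78 and 4.67 with DMSO and 3.81, 4.36 and 3.89 with rapamycin. BA+rapamycin lay wholly below rapamycin, whereas BA+DMSO replicate 3 overlapped DMSO. By its second probe BA+DMSO lay wholly below DMSO (-0.99). In BA+rapamycin against rapamycin, Hsph1 fell by 1.34 (SE 0.34, adjusted p 0.0118), and its second probe fell by 0.97 (adjusted p 0.0378). The brighter probe differed by -1.04 with brightness as a covariate, which was not called (adjusted p 0.339). With the title date as a block it differed by -0.40, an estimate that rests on a single BA+rapamycin array.

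Hspa1a and Hsph1 were thus the 2 inducible genes of 6 measured that were called lower in BA+rapamycin than in rapamycin, against 22.9% of all 20026 gene names called lower and 19.8% called higher in the same comparison. Groups did not overlap, with BA+rapamycin below, for 2 of the 6, where 36.6% of all gene names lay wholly below and 31.2% wholly above. These shares lie near those of all genes and are no result about the chaperones as a group. Hspa1a and Hsph1 each differed by more than -1 in size, and 12.1% of all gene names differed by -1 or less. With normexp background correction 7 of the 9 genes were called lower, where 5662 of all 20026 gene names were called lower and 6814 higher. With brightness as a covariate 0 of the 9 were called. Calls with the title date as a block are not counted, as that estimate rests on a single BA+rapamycin array. The median over the 6 inducible genes was -0.67, and over all gene names it was -0.067.

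Dnajb1 encodes Hsp40, the cochaperone that hands substrates to Hsp70. Its values were 5.21, 5.99 and 6.62 in DMSO and 5.99, 4.55 and 4.72 in rapamycin, and after the challenge 4.46, 4.09 and 4.52 with DMSO and 4.02, 4.70 and 4.28 with rapamycin. The values followed the slide, since the 3 DMSO arrays and rapamycin replicate 1 on slide 1 read 5.21 to 6.62 and all slide 2 arrays, 2 of them rapamycin, read 4.02 to 4.72. The difference between BA+DMSO and DMSO was -1.59 with no overlap, while that between BA+rapamycin and rapamycin was -0.75 (SE 0.42, 95% interval -1.67 to 0.16, adjusted p 0.161). With slide as a block these were -0.23 and -0.30, and with the title date as a block -0.49 and 0.74. The 0.74 rests on a single BA+rapamycin array. It also takes in the step from DMSO arrays on slide 1 to rapamycin arrays on slide 2. With normexp the difference between BA+rapamycin and rapamycin was -1.16 and called (adjusted p 0.0223), so no direction is given for Dnajb1.

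Bag3, the cochaperone that links Hsp70 to autophagy, had values of 3.96, 4.38 and 4.63 in DMSO and 4.83, 4.42 and 4.10 in rapamycin, and after the challenge 3.71, 3.47 and 3.43 with DMSO and 3.59, 4.13 and 3.84 with rapamycin. BA+DMSO lay wholly below DMSO, by 0.78 at the means, and BA+rapamycin overlapped rapamycin. The latter difference was -0.60 (SE 0.24, 95% interval -1.13 to -0.067), which did not pass after adjustment (adjusted p 0.0662). With slide as a block the 2 differences were -0.22 and -0.41, and with the title date as a block 0.0051 and 0.12. The latter was called with normexp (-1.01, adjusted p 0.00273) and with array weights (-0.72, adjusted p 0.0147).

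Hspb1 (Hsp27), the small chaperone of actin, spread more among challenged mice than among the others. Its SD was 0.30 in DMSO and 0.077 in rapamycin, and 0.80 in BA+DMSO and 0.88 in BA+rapamycin (n = 3 each). The challenged values were 6.65, 8.23 and 7.72 with vehicle and 7.76, 8.87 and 7.14 with rapamycin, around unchallenged values of 7.81 to 8.41. BA+rapamycin differed from rapamycin by -0.30 (95% interval -1.28 to 0.69, adjusted p 0.609), and by -0.74 (adjusted p 0.101) with normexp and -1.21 (adjusted p 0.362) with brightness as a covariate.

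Hsp90aa1 encodes the inducible cytosolic Hsp90. Its values ran from 5.53 to 6.04 in DMSO and 5.67 to 6.13 in rapamycin, and after the challenge 5.01 to 5.83 with DMSO and 5.24 to 5.82 with rapamycin, and all 4 groups overlapped. The difference was -0.33 between BA+DMSO and DMSO and -0.42 (95% interval -0.99 to 0.15, adjusted p 0.202) between BA+rapamycin and rapamycin. The latter was called with normexp (-0.81, adjusted p 0.00707) and with array weights (-0.57, adjusted p 0.0288). It was -0.28 with slide as a block, -0.076 with the title date as a block and -0.92 (adjusted p 0.214) with brightness as a covariate.

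**Figure D2:**
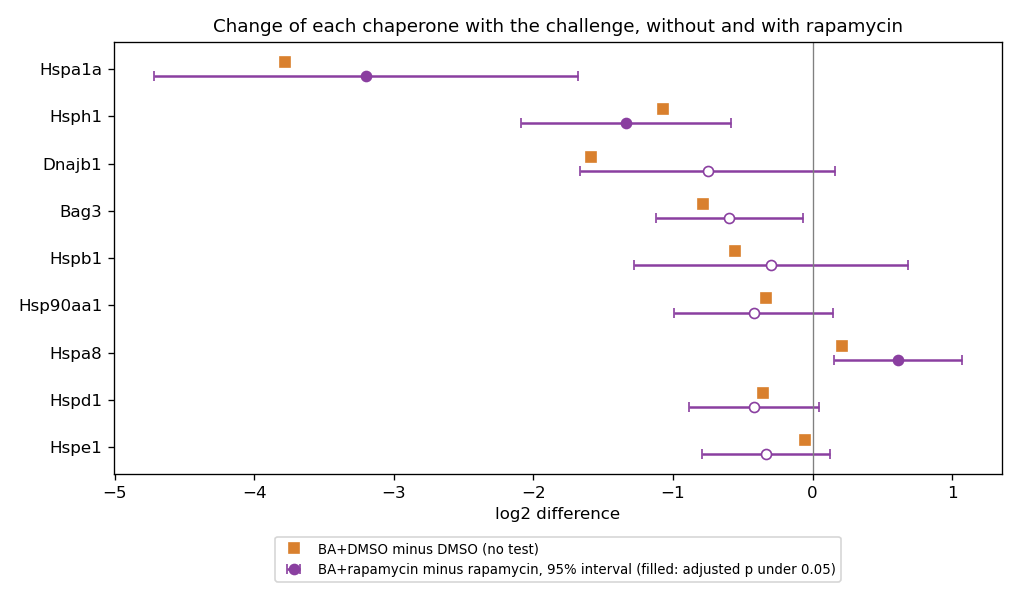
Log2 difference (horizontal axis) of each chaperone between BA+DMSO and DMSO (squares, without a test) and between BA+rapamycin and rapamycin (circles with 95% intervals, filled where the adjusted p was under 0.05). Hspa1a and Hsph1 are filled below 0 and Hspa8 is filled above it, at 0.61 by its brightest probe.

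In BA+DMSO against DMSO, all 6 inducible genes had a lower mean, with a median difference of -0.93 and 3 of them (Hspa1a, Dnajb1 and Bag3) without overlap. Over all gene names, BA+DMSO lay wholly below DMSO for 20.1% and wholly above for 15.4%. Because the genes were picked with this contrast in view, nothing is read from these counts. With slide as a block, which only the rapamycin arrays can estimate, the differences were -2.48 for Hspa1a, -0.49 for Hsph1 and 0.083 for Hsp90aa1. The 3 constitutive genes had differences of -0.35 for Hspd1, -0.051 for Hspe1 and 0.21 for Hspa8 by its brightest probe, each with overlapping groups. For Hspd1 it was -0.0052 with slide as a block and -0.020 with the title date as a block.

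Hspd1 (Hsp60) and Hspe1 (Hsp10) form the folding chamber of mitochondria and share the run of heat shock element units shown above. Hspd1 values were 4.28, 4.59 and 4.74 in DMSO and 4.58, 4.14 and 4.33 in rapamycin, and after the challenge 4.28, 3.85 and 4.42 with DMSO and 3.82, 4.16 and 3.80 with rapamycin. Hspe1 values by its brightest probe were 4.20, 4.39 and 4.48 in DMSO and 4.43, 4.26 and 4.42 in rapamycin, and after the challenge 4.37, 3.88 and 4.66 with DMSO and 3.98, 4.25 and 3.89 with rapamycin. In both genes replicate 2 was the lowest of BA+DMSO and the highest of BA+rapamycin. BA+rapamycin differed from rapamycin by -0.42 for Hspd1 (SE 0.21, adjusted p 0.128) and by -0.33 for Hspe1 (SE 0.21, adjusted p 0.212), and the other 2 Hspe1 probes, at -0.29 and -0.57, were not called either. Normexp called Hspd1 at -0.82 (adjusted p 0.00941) and Hspe1 at -0.74 (adjusted p 0.0181), and array weights called them at -0.52 and -0.40 (adjusted p 0.0198 and 0.0166). With the title date as a block, by a single BA+rapamycin array, the differences were -0.046 and -0.22.

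Hspa8 encodes Hsc70, the constitutive Hsp70, and its 3 probes went in opposite directions. By the brightest probe, at base 2044, values were 7.63, 7.65 and 7.89 in DMSO and 7.67, 7.83 and 7.51 in rapamycin, and after the challenge 8.10, 8.14 and 7.57 with DMSO and 8.15, 8.59 and 8.11 with rapamycin. By the probe at base 730, they were 4.40, 4.39 and 4.84 in DMSO and 5.02, 4.76 and 5.35 in rapamycin, and after the challenge 4.04, 3.67 and 4.16 with DMSO and 3.80, 4.48 and 3.64 with rapamycin. The first probe placed every BA+rapamycin array above every rapamycin array, and the second placed every one below.

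In BA+rapamycin against rapamycin, the probe at base 2044 was called higher by 0.61 (SE 0.21, adjusted p 0.0358), the probe at base 1812 fell by 0.59 (SE 0.21, adjusted p 0.0454) and the probe at base 730 fell by 1.07 (SE 0.26, adjusted p 0.00923). The rise changed with the scaling. It was 0.80 (adjusted p 0.0237) when arrays were scaled over the probes detected on all of them and 0.17 (adjusted p 0.324) with normexp, but -0.11 after quantile normalization and -0.10 in the deposited value table, neither of them called. With brightness as a covariate it was -0.076, also not called. The call was also lost on leaving out DMSO replicate 1 or 2 or any single rapamycin or BA+rapamycin array, with slide as a block (adjusted p 0.0855) and within slide 2 (adjusted p 0.0675). The difference itself stayed at 0.46 to 0.70 without 1 array and at 0.61 with slide as a block and within slide 2. With the title date as a block it was 0.58. On the linear scale before any scaling, that probe read 52300 to 61900 in rapamycin and 28700 to 31000 in BA+rapamycin. As the probes and the scalings differ in sign, no direction is given for Hspa8 as a gene.

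**Figure D3:**
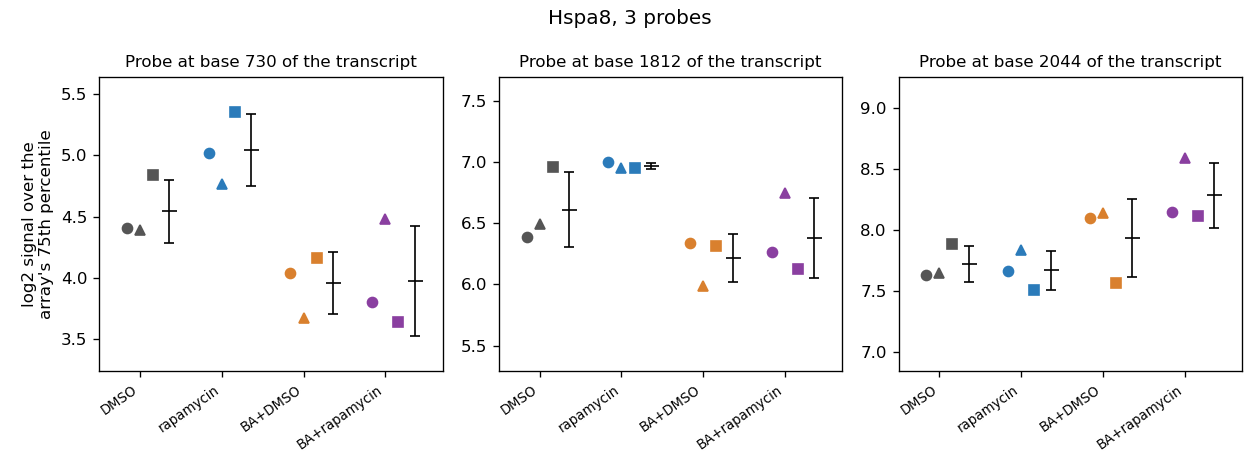
Log2 signal of the 3 Hspa8 probes (vertical axes, each spanning the same range) on every array in the 4 groups, with replicates 1, 2 and 3 as circles, triangles and squares and the mean ± SD (n = 3) as bars. BA+rapamycin lies below rapamycin at bases 730 and 1812 and above it at base 2044.

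The gap between the outer Hspa8 probes, 1314 bases apart, was 3.18 ± 0.11 in DMSO and 2.63 ± 0.46 in rapamycin, and after the challenge 3.98 ± 0.53 with DMSO and 4.31 ± 0.19 with rapamycin (mean ± SD, n = 3). Other transcripts moved the opposite way. Over 439 RefSeq transcripts with probes more than 1000 and up to 2000 bases apart, all detected on every array, the median of the later minus the earlier probe, relative to its DMSO mean, was -0.12 to -0.0076 on rapamycin arrays, -0.55 to -0.18 on BA+DMSO arrays and -0.46 to -0.44 on BA+rapamycin arrays. At this spacing, and over the 491 transcripts with probes further apart (rapamycin -0.18 to 0.15, BA+DMSO -0.99 to -0.15, BA+rapamycin -0.87 to -0.82), the later probe was lower on BA+rapamycin than on rapamycin arrays at the median. BA+DMSO overlapped rapamycin at the wider spacing. The part of this in the falls of Hspa1a and Hsph1 was not tested. For up to 500 bases (859 transcripts) the medians lay between -0.049 and 0.053 on all arrays.

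A difference between 2 probes on 1 array does not change when an array is scaled by a constant, so the inducible genes were also set against a constitutive relative within each array. Hspa1a minus Hspa8 (probe at base 2044) was -4.33, -3.32 and -3.16 in DMSO and -2.74, -4.04 and -4.05 in rapamycin, and after the challenge -7.19, -8.49 and -7.10 with DMSO and -8.26, -6.00 and -8.005 with rapamycin. Challenged and unchallenged arrays did not overlap. The gap was narrower with the other Hspa8 probes. With the probe at base 730, rapamycin replicate 3 read -1.894 and BA+rapamycin replicate 2 read -1.898. From rapamycin to BA+rapamycin, Hspa1a minus Hspa8 changed by -3.81, -2.61 and -2.13 with the probes at bases 2044, 1812 and 730. Each had a two-sided exact permutation p of 0.1, the smallest that 3 against 3 arrays allow. Hsp90aa1 minus its constitutive relative Hsp90ab1 changed by 0.056 (exact permutation p 0.6), with group means between -1.95 and -1.79. The latter change was 0.58 after quantile normalization and -0.45 with brightness as a covariate, so no direction is given for it. With the title date as a block the Hspa1a to Hspa8 change was -2.87.

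**Figure D4:**
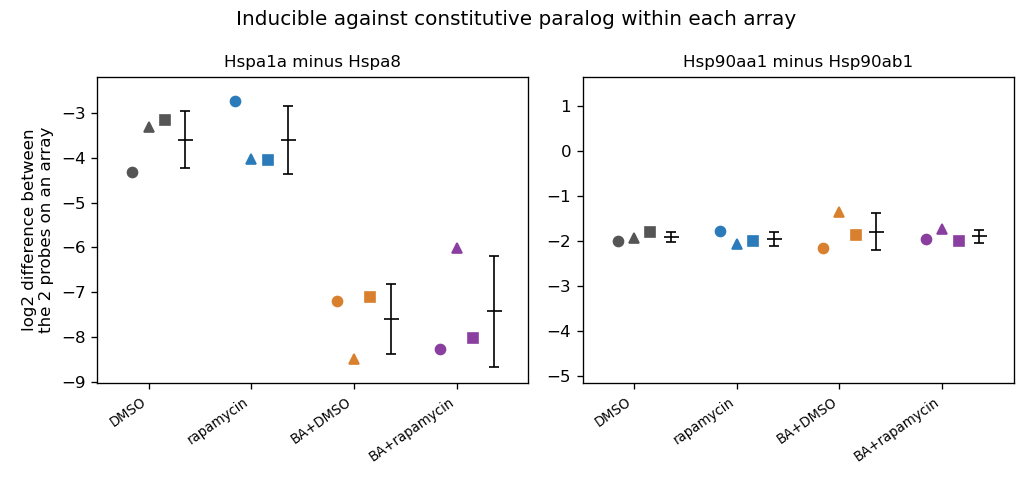
Log2 difference between the inducible and the constitutive probe on the same array (vertical axis) for Hspa1a against Hspa8 and Hsp90aa1 against Hsp90ab1 in the 4 groups, with replicates as symbols and mean ± SD (n = 3) as bars. Hspa1a against Hspa8, by the Hspa8 probe at base 2044, is -4.33 or above on unchallenged arrays and -6.00 or below on challenged arrays.

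The chaperones largely shared their highest array in DMSO, rapamycin and BA+rapamycin, and their lowest array in DMSO, but not in BA+DMSO. Each mouse had its own array, so mouse and array cannot be told apart. DMSO replicate 3 had the highest value of its group for 9 of 9 genes and DMSO replicate 1 the lowest for 9 of 9. BA+rapamycin replicate 2 was the highest for 9 of 9 and rapamycin replicate 1 for 8 of 9. Among all gene names those 4 shares were 31.9%, 34.2%, 37.1% and 26.1%. In BA+DMSO no array was highest for more than 4 of the 9. DMSO replicate 3 and BA+rapamycin replicate 2 were the dimmest arrays of their groups, at 221 and 74.6, and rapamycin replicate 1, at 257, was likewise the dimmest of its group. BA+DMSO replicate 2, the dimmest of its group at 78.1, was the highest for 3 of the 9 and the lowest for 4.

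Rapamycin was not seen to change a chaperone in either setting. In BA+rapamycin against BA+DMSO, limma called 0 of 9, and 0.305% of all gene names were called, and all 9 pairs of groups overlapped. Differences ran from -0.26 for Hspe1 (95% interval -0.72 to 0.19) to 0.52 for Hspa1a (95% interval -0.999 to 2.03), and the smallest adjusted p was 0.331. At an unadjusted p under 0.05, 5585 probes passed in this contrast. Without BA+DMSO replicate 2, Hspe1 was called at -0.47 (adjusted p 0.0429), and 11092 probes were called where 78 had been.

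In rapamycin against DMSO, 0 of 9 were called, beside 0.00499% of all gene names, a single one. The lowest difference was -0.86 for Dnajb1 (95% interval -1.77 to 0.060, adjusted p 1), -1.31 to -0.51 without 1 array (without rapamycin replicate 1 and DMSO replicate 3) and -1.67 on the arrays that share a title date, and the other 8 lay between -0.19 and 0.22. Hspa1a differed by -0.060 (95% interval -1.58 to 1.46). With slide as a block, and on slide 1 alone, Dnajb1 was 0.048 and Hspa1a 0.81. The arrays that share a title date are split by slide, with DMSO on slide 1 and rapamycin on slide 2. The comparisons of this and the previous paragraph share the BA+DMSO and the DMSO arrays with the one by which the genes were chosen.

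Whether rapamycin changed the response to the challenge was asked by the interaction. Limma called 0 probes of 27801, with 1702 at an unadjusted p under 0.05. Hspa1a gave 0.58 (95% interval -1.57 to 2.72) and Dnajb1 0.83 (95% interval -0.46 to 2.13), and both intervals include 0. The interaction contains the BA+DMSO against DMSO difference by which the genes were chosen, so nothing is read from its sign.

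The wider chaperone network was described through lists of genes in BA+rapamycin against rapamycin, where 22.9% of all gene names were called lower and 19.8% higher as the background of each count. With slide as a block 3094 gene names were called lower and 2756 higher, within slide 2 5076 and 4452, and with brightness as a covariate 357 and 1026. With normexp the counts were 5662 and 6814, and with scaling over detected probes 3612 and 4960. In 11 of the 17 list genes with several tested probes, another probe had the opposite sign or a different call, and each gene is counted by its brightest probe. Of 5 heat shock factors and regulators tested, 2 were called lower and 0 higher. Hsf1, the main activator, fell from 2.37 ± 0.10 in rapamycin to 1.81 ± 0.15 in BA+rapamycin (adjusted p 0.0238), and Hspbp1, which releases nucleotide from Hsp70, fell by 0.75 (adjusted p 0.0251). Hsbp1, which binds Hsf1 trimers, differed by -0.74 (adjusted p 0.0680). Hsf1 was called in 2 of 5 settings of background correction and scaling, at -0.80 to -0.37. A slide block gave 1 of the 5 genes called at a median of -0.53 (3 within slide 2), and with brightness 0 were, at a median of -0.0039.

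Of 15 other heat-inducible chaperones and cochaperones, 10 were called lower and 1 higher, with a median of -0.96. Hspb8, the partner of Bag3, fell by 1.503 (adjusted p 0.00244), the Hsp40 Dnaja1 fell by 1.19 (adjusted p 0.0203) and Hspa1l, an Hsp70 whose gene neighbours Hspa1a, fell by 1.13 (adjusted p 0.0353). The gene called higher was Serpinh1 (0.89, adjusted p 0.00151), the collagen chaperone Hsp47 of the endoplasmic reticulum, named after its value was seen. A slide block gave 4 of the 15 called lower at a median of -0.85 (9 within slide 2), and with brightness 1 was, at a median of -0.45. Dnaja4, counted as lower at -0.96, read 0.45 (adjusted p 0.466) by its other probe.

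Of 18 constitutive cytosolic chaperones and cochaperones, 9 were called lower and 1 higher, with a median of -0.55. The 9 include Bag4, which cleared the background on 3 of 3 rapamycin and 1 of 3 BA+rapamycin arrays and whose difference ran from -1.32 to 0.27 over the scalings. Hspa2, an Hsp70 best known from the testis, fell from 3.55 ± 0.21 to 0.64 ± 0.31 (adjusted p 0.00013). Bag2 fell by 1.16 (adjusted p 0.0318) and Dnajb2 fell by 1.01 (adjusted p 0.00531), while Bag1 was called higher by 0.51 (adjusted p 0.0315), a call that its second probe did not pass (0.42, adjusted p 0.0626). Hsp90ab1 fell by 0.48 (adjusted p 0.0385). Bag1 was called in 2 of 5 settings of background correction and scaling. A slide block gave 3 of the 18 called lower at a median of -0.55 (10 within slide 2), and with brightness 1 was, at a median of -0.10. Normexp called 15 of the 18 lower and 0 higher, and scaling over detected probes 6 and 1. Of the genes not called, Hspa4 (-1.14, adjusted p 0.00342) and Dnaja2 (-0.97, adjusted p 0.00592) were called lower by another probe and Bag6 was called higher by one (1.16, adjusted p 0.0293). Of 6 small heat shock proteins, 2 were called lower, Hspb8 and Hspb6 (-0.88, adjusted p 0.0201), and 1 higher, Hspb9 (0.70, adjusted p 0.0196). Their median was -0.15, and 0.032 when arrays were scaled over the probes detected on all of them. Hspb9 was called in 3 of 5 such settings, and with brightness 0 of the 6 were called. Cryab, a lens and muscle chaperone, was 0.56 and -0.52 by its 2 probes, neither of them called.

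The chaperonin that folds actin and tubulin, with its partner prefoldin, had 6 of 13 genes called lower and 1, Pfdn1, called higher (0.52, adjusted p 0.0205). Tcp1 fell by 1.18 (adjusted p 0.0229) and Cct6a fell by 1.01 (adjusted p 0.0447), and Vbp1 differed by -1.01 (adjusted p 0.0517) by its brighter probe and fell by 0.61 (adjusted p 0.0382) by the other. Cct6a was called in 2 of 5 settings of background correction and scaling. A slide block gave 4 of the 13 called lower at a median of -0.71 (9 within slide 2), and with brightness 0 were and their median turned from -0.68 to 0.14. Normexp called 11 of the 13 lower and 0 higher. Of 11 mitochondrial chaperones and proteases, 6 were called lower, among them Clpx (-1.08, adjusted p 0.00241), Hscb (-0.88, adjusted p 0.0124) and Grpel1 (-0.84, adjusted p 0.0240), and 1, Clpb, was called higher (0.70, adjusted p 0.00495). A slide block gave 4 of the 11 called lower at a median of -0.55 (6 within slide 2), and with brightness 0 were, and their median went from -0.52 to -0.12. Normexp called 9 of the 11 lower and 1 higher.

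Chaperones of the endoplasmic reticulum, which answer to unfolded secretory protein through other regulators than Hsf1, had 5 of 9 genes called higher and 0 lower, with a median of 0.60. Sdf2l1 rose from -0.0093 ± 0.053 in rapamycin to 1.65 ± 0.50 in BA+rapamycin (adjusted p 0.00143). Hspa5, the Hsp70 of this compartment also called BiP, rose by 0.88 (adjusted p 0.00498), and the disulfide isomerase Pdia4 by 0.84 (adjusted p 0.0309). Their median stayed above 0 under the 4 alternatives of background correction and scaling, at 0.19 to 0.79, but with normexp, which called 5662 of all gene names lower and 6814 higher, 2 of the 9 were called lower and 3 higher. With slide as a block 3 were called higher at a median of 0.59 (4 within slide 2), and with brightness 2 were.

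**Figure D5:**
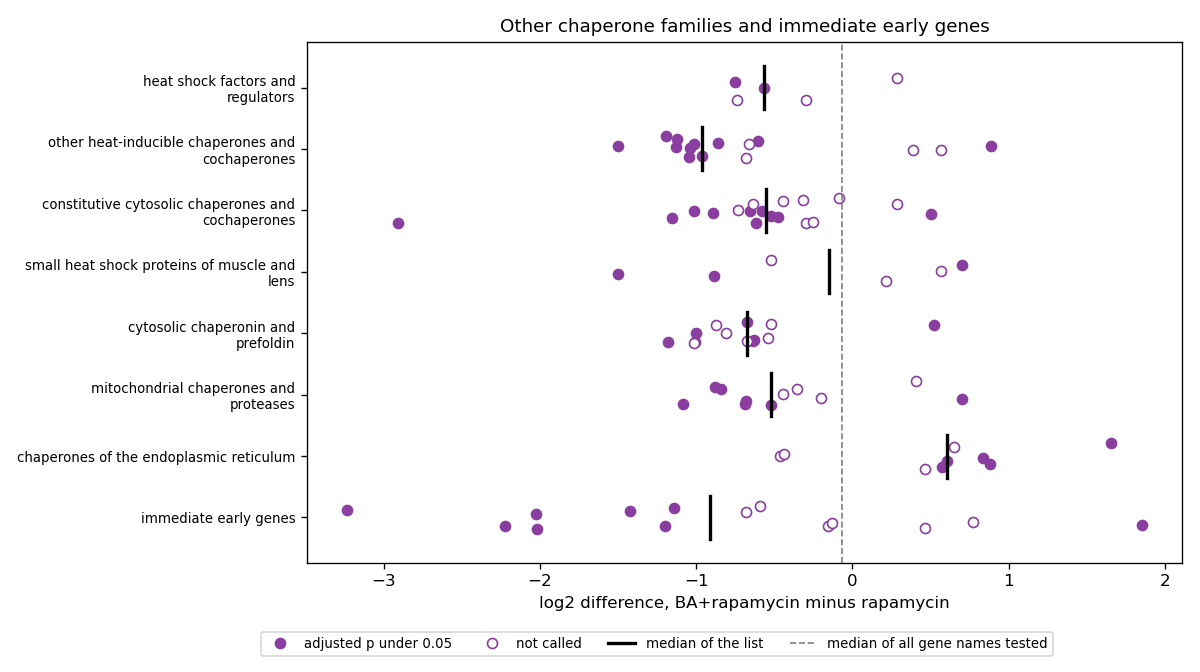
Log2 difference of each gene between BA+rapamycin and rapamycin (horizontal axis) by gene list, with filled points where the adjusted p was under 0.05, a bar at the median of each list and a dashed line at the median of all 20026 gene names (-0.067). The endoplasmic reticulum chaperones have their median above 0, at 0.60, and the other lists have theirs below 0.

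Immediate early genes, which are switched on within minutes by many stimuli, were listed beside the chaperones. Of 14, 7 were called lower and 1 higher in BA+rapamycin against rapamycin, with a median of -0.91. The 7 include Zfp36, which cleared the background on 3 of 3 rapamycin and 0 of 3 BA+rapamycin arrays and whose difference ran from -1.73 to 0.39 over the scalings, so 6 rest on genes measured in both groups. Atf3 fell by 3.24 (adjusted p 0.00125), Fosb fell by 2.22 (adjusted p 0.00289) and Btg2 fell by 2.02 (adjusted p 0.00115), and Egr2 was called higher (1.86, adjusted p 0.0141). The genes called higher in the lists, Pfdn1, Clpb, Bag1 and Egr2 among them, were named after their values were seen. With brightness as a covariate 2 of the 14 were called lower, at a median of -0.29. Their part in the fall of Hspa1a was not tested.

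Likeness to Hspa1a was the root mean square difference over the 12 arrays after centring each probe. The size of a change therefore counts as well as its pattern. Names that are accessions, array or locus identifiers, lincRNAs or numbered predicted genes were left out. Of the remaining genes outside the chaperones, the most alike were Atf3 (0.68), Fosb (0.81) and the potassium channel partner Kcnip4 (0.85). Next came the phosphatase Dusp8 (0.86), the RhoA exchange factor Net1 (0.89) and the phosphodiesterase Pde5a (0.92). Among the chaperones themselves the most alike were Dnajb1 and Hsph1, each at 1.32. Pde5a was well above background on 6 of 12 arrays.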

How the data were processed

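RNA was measured on 12 one-colour Agilent mouse arrays. The authors amplified and labelled it with Cy3 (Low Input Quick Amp kit), and the deposited scanner files hold processed intensity per spot, which per the file headers was spatially and multiplicatively detrended by Feature Extraction 10.7.1.1 (the submitters' processing notes name 9.5.1.1) with probes placed on mm9. Further columns used are, per the file headers, flags of 0 or 1 for spots well above background, saturated or outlying, and no spot was saturated. The deposited value table holds intensity that matched a quantile normalization (r of 0.9999 or more) and served as an alternative.

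Log2 processed intensity minus the 75th percentile of each array was averaged over the spots of a probe. Probes with at least a share of 0.5 of spots well above background on all 3 arrays of some group were tested, 27801 of 55681. All arrays entered 1 limma fit (version 3.58.1, R 4.3.3) with a mean per group, two-sided tests, Benjamini-Hochberg adjustment over all tested probes and a call at an adjusted p under 0.05. The script was tested on simulated data with known changes. The number of arrays limits the precision.

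Each gene was read from the probe brightest on average, and other probes of the 9 chaperones were given for BA+rapamycin against rapamycin. The members, the gene lists and the tests were chosen with earlier results of these data known. Named from each list were the 3 genes with the largest difference in BA+rapamycin against rapamycin, and 6 genes by likeness to Hspa1a. Samples were grouped by their treatment labels, with replicates numbered in order of deposition. Symbols are those of the array files. Alternatives were background correction, scaling, filters, slide, brightness, array weights, variance model, probe, title date and leaving out each array. Versions of Python (3.11.15) and scipy (1.17.1) apply to the exact permutation tests.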

Additional observations from a re-analysis of the deposited data

How the results depend on the processing

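Replicate numbers follow the order of deposition and pair nothing. The number at the end of the title could serve as a replicate block only in rapamycin against DMSO, on the 4 arrays that share a title date, and called 23 probes and 0 of the 9 genes there. The deviations of its 2 pairs correlated at -0.0715, and no source says that the number marks a shared animal or litter. For the other comparisons no paired analysis was possible because their groups share fewer than 2 such numbers on 1 date. The fall of Hspa1a in BA+rapamycin against rapamycin ranged from -4.06 to -2.29 over the alternatives. The -2.29 came with the title date as a block, where no call is read. In the other alternatives the fall was called in all but the brightness covariate (-3.91, adjusted p 0.0988). Of the 9 genes, 3 were called in this comparison, 7 with normexp or array weights and 0 with the brightness covariate. Normexp called 5662 of all 20026 gene names lower and 6814 higher. Of the probes, 11602 were called, 29650 with no filter, 1786 with brightness, 17545 with array weights, 3625 with the title date as a block and 6530 to 15816 without 1 array, the lowest without rapamycin replicate 3. The median of the 9 genes in BA+DMSO against DMSO was -0.56, -0.22 with slide as a block and -0.91 with brightness. Scaling over detected probes moved the median of all genes in BA+rapamycin against rapamycin from -0.067 to 0.12.

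For rapamycin under challenge 78 probes were called, 11 with normexp, 223 after quantile normalization, 473 when scaled over detected probes, 222 in the deposited table, 21 with no filter, 38 when detected on all arrays, 0 in the compared groups only, 37 with slide as a block, 312 with brightness, 7094 with weights, 200 with a variance trend and 30 to 11092 without 1 array (highest without BA+DMSO replicate 2), with 0 to 1 of the 9 genes. For rapamycin alone 1 was called, 3 in the compared groups only, 2 with brightness, 535 with weights, 0 to 4 without 1 array 23 with the title number as a block and 0 in the 11 other alternatives that changed it. The Hsp90aa1 to Hsp90ab1 change was 0.58 after quantile normalization, 0.54 in the deposited table and -0.45 with brightness, and the Hspa1a to Hspa8 change was -2.87 with the title date as a block.

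Signs turned as follows, and the cause was not tested. In BA+DMSO against DMSO, Hsp90aa1 was 0.083 (slide block), Hspe1 0.041 (slide block), 0.21 (brightness), 0.015 (detected probes) and 0.0043 (weights), up to 0.16 without 1 array (BA+DMSO replicate 2), and Hspa8 -0.23 (quantile), -0.22 (deposited table), -0.071 (normexp), -0.18 (brightness), -0.58 (5′ probe) and -0.40 (median of probes). The title date as a block gave 0.0051 for Bag3 and 0.073 for Hspe1 there, 0.74 for Dnajb1 and 0.12 for Bag3 in BA+rapamycin against rapamycin, and -1.02 for Hspa1a, 0.071 for Hsph1, 0.24 for Hsp90aa1 and -0.12 for Bag3 in BA+rapamycin against BA+DMSO. In each of these comparisons a challenged group enters the title date estimate by a single array, so no conclusion is drawn from these turns. In BA+rapamycin against rapamycin, Hspa8 was -0.11 (quantile), -0.10 (deposited table), -0.076 (brightness), -1.07 (5′ probe) and -0.59 (median of probes), Hspe1 0.12 (brightness), and Hspb1 -0.77 to 0.10 without 1 array. Its Hspa8 call was lost on leaving out DMSO replicate 1 or 2 or any 1 rapamycin or BA+rapamycin array (adjusted p 0.0503 to 0.127). In BA+rapamycin against BA+DMSO, Hspa8 was -0.022 (quantile) and -0.019 (deposited table), Hsph1 0.061 (quantile), 0.10 (detected probes), 0.062 (deposited table), 0.049 (brightness), 0.12 (weights) and 0.14 (5′ probe), Hsp90aa1 0.11 (detected probes), 0.00028 (deposited table) and 0.24 (weights), Dnajb1 0.074 (quantile), 0.12 (detected probes) and 0.073 (deposited table), and Hspa1a -0.32 (weights). Without 1 array, Hspa1a ranged from -0.35 to 1.004, Hsph1 from -0.21 to 0.26, Hspb1 from -0.078 to 0.79, Hsp90aa1 from -0.26 to 0.15 and Dnajb1 from -0.21 to 0.14. In rapamycin against DMSO, slide as a block and slide 1 alone each gave 0.81 for Hspa1a, 0.043 for Hspd1 and 0.048 for Dnajb1. Brightness gave 0.017 for Hspa1a, 0.023 for Hspa8 and -0.033 for Hspe1, and weights 0.086 for Hspa1a. For Hspa8 the 5′ probe gave 0.50 and the median of probes 0.36. Arrays sharing a title date gave, with or without the title date or title number as a block, -0.27 for Hsph1, -0.044 for Hspb1, -0.21 for Hsp90aa1, -0.092 for Hspe1 and -0.24 for Bag3. Without 1 array, Hspa1a ranged from -0.49 to 0.25, Hspa8 from -0.13 to 0.032, Hsph1 from -0.072 to 0.51, Hspb1 from -0.0038 to 0.29, Hsp90aa1 from -0.079 to 0.18, Hspe1 from -0.062 to 0.078 and Bag3 from -0.062 to 0.30. The probes chosen by position and the title date and title number as blocks were alternatives added after seeing the data.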
